A study of Mus musculus with 48 samples.

Results

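The genes described here encode the proteasome and the ubiquitin-specific proteases of the mouse brain. They were chosen by name: every gene whose symbol is Psm followed by a letter from a to g and a number, or Usp followed by a number, and which had a row of its own on the array. The array held 94 such genes, 47 Psm and 47 Usp. A gene was tested when its mean over the 48 arrays was 5.1 or more (to 1 decimal) on the log2 scale, which left 91 members, 45 Psm and 46 Usp, among 17258 genes tested in all. Psma5, Psma8 and Usp44 did not reach that level, with means of 4.97, 4.84 and 3.90, and are not part of the counts. The tested members nearest to the limit were Psmb9 at 5.35, Psmb11 at 5.37 and Usp51 at 5.71. Psma4 was listed only in rows with several symbols and was not tested.

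Male C57BL/6 mice lived under a cycle of 12 h light and 12 h dark, and brains were collected at zeitgeber time (ZT, hours after lights-on) 3, 7, 11, 15, 19 and 23 in 2 successive cycles. Tissue was taken from both sides of 1-mm slices at 4 sites: SN/VTA, the substantia nigra together with the ventral tegmental area; PFC, the prefrontal cortex; STR, the striatum; and HAB, the habenula. The labels name no allele or treatment beyond the light cycle, and each array carries the pooled RNA of 3 mice killed together. This gave 12 arrays per tissue, 2 for each of 24 groups of tissue and time, and the spread between arrays is that between pools, not between mice. Arrays of different tissues collected at the same hour may come from the same mice. The fits had no term for this and treated all arrays as independent.

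The proteasome is a barrel-shaped protease that degrades ubiquitin-tagged proteins. Its 20S core is made of rings of alpha (Psma) and beta (Psmb) subunits, the beta rings carry the active sites, and the 19S cap with ATPases (Psmc) and other subunits (Psmd) binds, unfolds and feeds in the substrate. The Usp enzymes remove ubiquitin and can spare a protein from that fate. Several clock proteins are turned over by this route, and Usp2 is itself a known output of the clock.

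The arrays separated by tissue. The 2 arrays of a group correlated with r of 0.982 to 0.995, and each of the 48 arrays was closest to another array of its own tissue. The genes that define each tissue were higher there by the test used below for tissue levels: 5 of 5 dopamine neuron genes in SN/VTA, 4 of 4 cortical genes in PFC, 4 of 4 medium spiny neuron genes in STR and 4 of 4 habenula genes in HAB. Some were called higher in another tissue too. These were 1 cortical gene in STR (0.71 on the log2 scale), 1 cortical gene in HAB (1.9) and 1 medium spiny neuron gene in SN/VTA (1.06). Of 19 core clock genes tested, 14 passed the test for a shared rhythm described below.

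The first question was which members followed a common daily curve fitted to the 4 tissues together. Such a curve is an average, and a gene can pass its test without following it in each tissue. A cosine curve with a period of 24 h was fitted over all 48 arrays with tissue as a term (limma, p-values adjusted by Benjamini-Hochberg over all genes tested, threshold 0.05). Amplitudes are on the log2 scale and measure how far the curve rises above its mean, with the standard error. In this test 8 of 46 Usp genes (17.4%) and 2 of 45 Psm genes (4.44%) passed, beside 5.55% of all genes tested. At an unadjusted p under 0.05 there were 13 Usp genes (28.3%) and 8 Psm genes (17.8%), beside 19.2% of all genes. The median amplitude was 0.0399 for the Usp genes, 0.0314 for the Psm genes and 0.042 for all genes, so most members of either family moved little over the day. The difference between the 2 families was not tested.

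Usp2, which removes ubiquitin from several clock and cell cycle proteins, had the largest amplitude of the 91 members. In SN/VTA the 2 arrays read 8.42 and 8.61 at ZT3, 8.65 and 8.79 at ZT7, 9.11 and 8.99 at ZT11, 8.82 and 8.92 at ZT15, 8.76 and 8.68 at ZT19, and 8.58 and 8.51 at ZT23. In PFC they read 9.20 and 9.16, 9.56 and 9.53, 9.49 and 9.49, 9.44 and 9.25, 9.09 and 9.16, and 8.99 and 9.0 at the same times. In both tissues the arrays of ZT11 were above all arrays of ZT3, ZT19 and ZT23.

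In STR the Usp2 arrays read 8.94 and 9.15 at ZT3, 9.26 and 9.53 at ZT7, 9.34 and 9.24 at ZT11, 9.19 and 9.11 at ZT15, 9.04 and 9.0 at ZT19, and 8.92 and 8.88 at ZT23. In HAB they read 9.35 and 9.27, 9.26 and 9.42, 9.44 and 9.43, 9.47 and 9.39, 9.30 and 9.28, and 9.15 and 9.27 at the same times. The values at ZT23 were the lowest of the day in STR, while in HAB the arrays of several times overlapped. Over the 4 tissues all 8 arrays of ZT11 were above their tissue mean and 0 of 8 arrays of ZT23 were.

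The shared curve of Usp2 peaked at ZT10.9 with an amplitude of 0.20 ± 0.02, or 1.32-fold between its lowest and highest point (limma, adjusted p = 6.29e-08). Of the 48 arrays, 41 lay on the side of their tissue mean that the curve gives. Fitted to each cycle alone, the amplitude was 0.21 with a peak at ZT11.6 in the first cycle and 0.20 with a peak at ZT10.1 in the second.

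**Figure D1:**
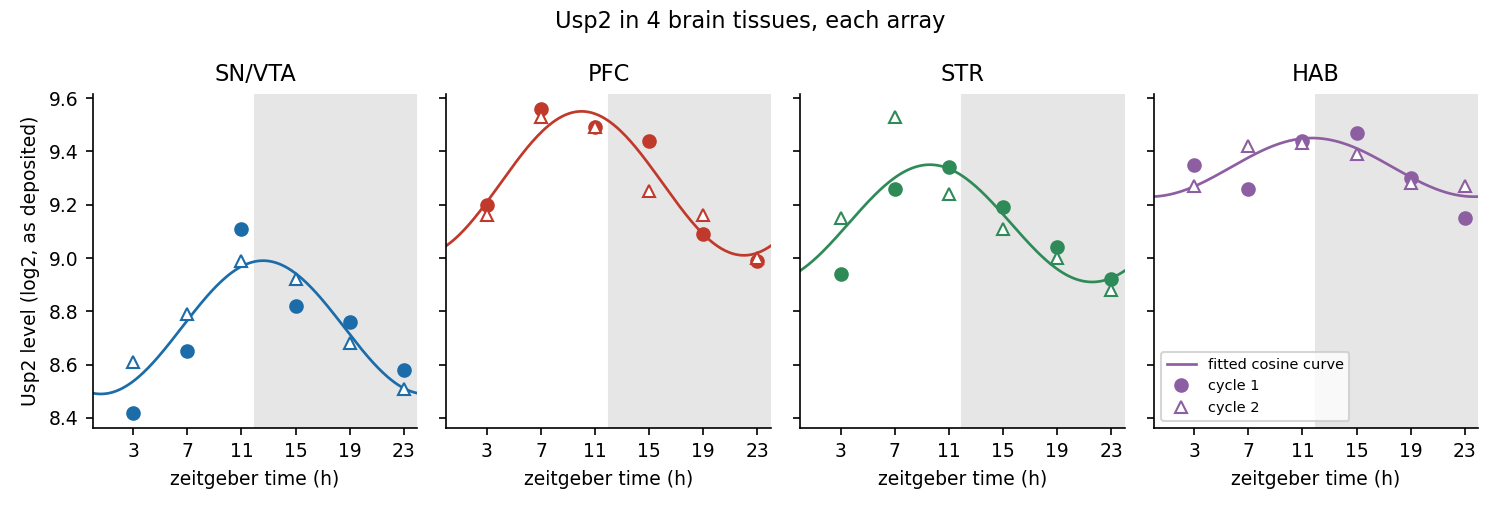
Level of Usp2 on each array (log2, vertical axis) against zeitgeber time in h (horizontal axis) in the 4 tissues, with the cosine curve fitted to each tissue. Filled circles are the first cycle, open triangles the second, and grey marks the dark. The curves peak between ZT9.6 and ZT12.6, and the curve of HAB is the flattest, with an amplitude of 0.11.

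Fitted to 1 tissue at a time, the Usp2 curve peaked at ZT12.6 in SN/VTA (amplitude 0.25 ± 0.04), ZT10.0 in PFC (0.27 ± 0.04), ZT9.6 in STR (0.22 ± 0.05) and ZT11.7 in HAB (0.11 ± 0.03). Usp2 passed the test in SN/VTA (limma, adjusted p = 0.0435) and in PFC (adjusted p = 0.0176). It did not pass in STR (adjusted p = 0.316) or HAB (adjusted p = 0.765). Usp2 was the 1 member past the threshold in SN/VTA, where 0.162% of all genes passed, and in PFC, where 0.18% did. No member passed in STR or in HAB, where 0.0174% of all genes passed in each. At an unadjusted p under 0.05 the members numbered 8 in SN/VTA (9.88% of all genes), 13 in PFC (11.6%), 6 in STR (8.5%) and 7 in HAB (6.3%). The call in SN/VTA was lost in 11 of the 12 fits that left out 1 of its arrays (highest adjusted p = 0.135, without the second array of ZT11), and with the replicate number as a block (adjusted p = 0.0727). The call in PFC was lost in 6 of 12 such fits.

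The Usp2 curves of the 4 tissues were not shown to differ. Amplitude alone was not tested. The test of the difference between tissues, 6 terms of tissue by cosine and sine, takes amplitude and peak time together. It gave Usp2 an adjusted p of 0.33 (limma) at an unadjusted p of 0.00138. No member passed this test by limma, beside 0.029% of all genes, and 1 Psm and 6 Usp genes had an unadjusted p under 0.05, beside 6.65% of all genes.

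Usp31 had the second smallest p-value of the members and was highest in the dark. With each tissue centred on its mean, its 8 arrays had a median of -0.02 (lowest -0.18, highest 0.04) at ZT3, -0.14 (-0.32 to -0.09) at ZT7, -0.08 (-0.11 to 0.05) at ZT11, 0.09 (-0.03 to 0.16) at ZT15, 0.05 (-0.03 to 0.09) at ZT19 and 0.13 (0.04 to 0.25) at ZT23. All 8 arrays of ZT7 were below and all 8 arrays of ZT23 were above their tissue mean, and these 2 times did not overlap. The shared curve peaked at ZT19.5 with an amplitude of 0.12 ± 0.02, or 1.18-fold between its lowest and highest point (limma, adjusted p = 2.81e-05). The 4 tissues fitted alone gave peaks at ZT19.5 in SN/VTA, ZT20.4 in PFC, ZT19.6 in STR and ZT18.4 in HAB, with amplitudes of 0.12, 0.10, 0.17 and 0.11.

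Since Usp2 and Usp31 had the smallest p-values of the members, with one curve peaking in the light and the other in the dark, the 250 bases before their transcript starts are shown. They are from RefSeq on build GRCm38.p6, on the strand of the gene, 5′ to 3′. The Usp2 window is chr9:44084670-44084919 on the plus strand and lies inside the annotated span of the gene (chr9:44067021-44095627), so that the start in question is not the outermost one. The Usp31 window is chr7:121707443-121707692 on the minus strand and overlaps the annotated span of its gene (chr7:121642021-121707461) by 19 bases at the 5′ end of the gene. Capitals mark a match to any of the motifs searched.
Usp2: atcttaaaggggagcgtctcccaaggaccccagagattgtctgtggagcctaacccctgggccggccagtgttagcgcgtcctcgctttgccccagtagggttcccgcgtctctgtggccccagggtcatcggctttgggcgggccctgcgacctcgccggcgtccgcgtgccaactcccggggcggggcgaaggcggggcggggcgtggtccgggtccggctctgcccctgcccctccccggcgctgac
Usp31: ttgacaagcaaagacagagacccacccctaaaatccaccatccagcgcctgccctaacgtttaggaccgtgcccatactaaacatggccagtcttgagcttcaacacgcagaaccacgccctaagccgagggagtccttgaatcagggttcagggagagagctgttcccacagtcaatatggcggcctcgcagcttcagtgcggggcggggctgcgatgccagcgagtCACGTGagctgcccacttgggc
The motifs were the E-box CACGTG bound by CLOCK and BMAL1, the D-box TTATGTAA, the half-site AGGTCA of ROR and REV-ERB receptors, and the half-site TGACG of the cAMP response element, each searched on both strands. The Usp31 window held 1 E-box, which begins 22 bases before the start and has 3 of its 6 bases inside the annotated span of the gene, and the Usp2 window held 0 of the 4 motifs. Over all 32851 windows of this length, 6.02% held the E-box, 0.819% the D-box, 14% the receptor half-site and 17.8% the cAMP half-site. Of the tested members 74 had a window, and 6 of these held the E-box, 0 the D-box, 12 the receptor half-site and 24 the cAMP half-site. A member was counted once if any of its windows held the motif, whereas the shares above are of single windows. The member counts and these shares are therefore not directly comparable. A match is a run of letters and not a measured site.

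Of the other 6 Usp genes with a shared rhythm, Usp22 peaked in the light, Usp54 and Usp53 early in the dark, and Usp21, Usp37 and Usp45 later in the dark. Usp22, the deubiquitinase of the SAGA chromatin complex, peaked at ZT9.1 with an amplitude of 0.07 (limma, adjusted p = 0.012). Its median at ZT11 was 0.05 above the tissue mean, with 7 of 8 arrays above, and 1 of 8 arrays was above at ZT23. Usp54 (amplitude 0.10, peak ZT13.3, adjusted p = 0.0029) and Usp53 (0.11, ZT13.5, 0.00938), which resemble each other in sequence, were both lowest at ZT3, where 0 of 8 arrays of either gene was above the tissue mean. Both means were highest at ZT11, at 0.12 ± 0.10 for Usp54 and 0.12 ± 0.09 for Usp53 (SD, n = 8 arrays).

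Usp21, which acts on histone H2A, peaked at ZT17.4 with an amplitude of 0.10 (limma, adjusted p = 2.47e-04). Its 8 arrays of ZT7 were all below the tissue mean and 7 of 8 arrays of ZT15 were above. Usp45, which takes part in DNA repair, peaked at ZT19.6 with an amplitude of 0.07 (adjusted p = 0.0206), and Usp37, a cell cycle deubiquitinase, peaked at ZT17.1 with 0.08 (adjusted p = 0.040). At ZT7 1 of 8 arrays was above the tissue mean for Usp45 and for Usp37, while at ZT11 it was 2 of 8 for Usp45 and 5 of 8 for both Usp37 and Usp21. In SN/VTA, PFC and HAB the mean of Usp45 was lowest at ZT7, at 8.63, 8.47 and 8.27. In STR its mean was lowest at ZT11 (8.23) and highest at ZT3 (8.43), away from the shared curve. The rhythms of Usp37, Usp45 and Usp22 did not all hold under other settings: Usp37 lost its call in 16 of 48 fits without 1 array (highest adjusted p = 0.0706), and Usp22, Usp45, Usp37 and Usp53 lost it when the 6 times were fitted as a factor in place of a cosine (adjusted p between 0.0656 and 0.227). Usp37 also lost it with centred arrays (adjusted p = 0.052) and without the filter (adjusted p = 0.0555), and Usp22, Usp37, Usp45, Usp53 and Usp54 each lost it without at least 1 of the tissues (adjusted p up to 0.317). Usp22, Usp37 and Usp45 also overlap other protein-coding genes, Tnfrsf13b, Cnot9 and Tstd3 among them, from which the array signal may not be fully separate.

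**Figure D2:**
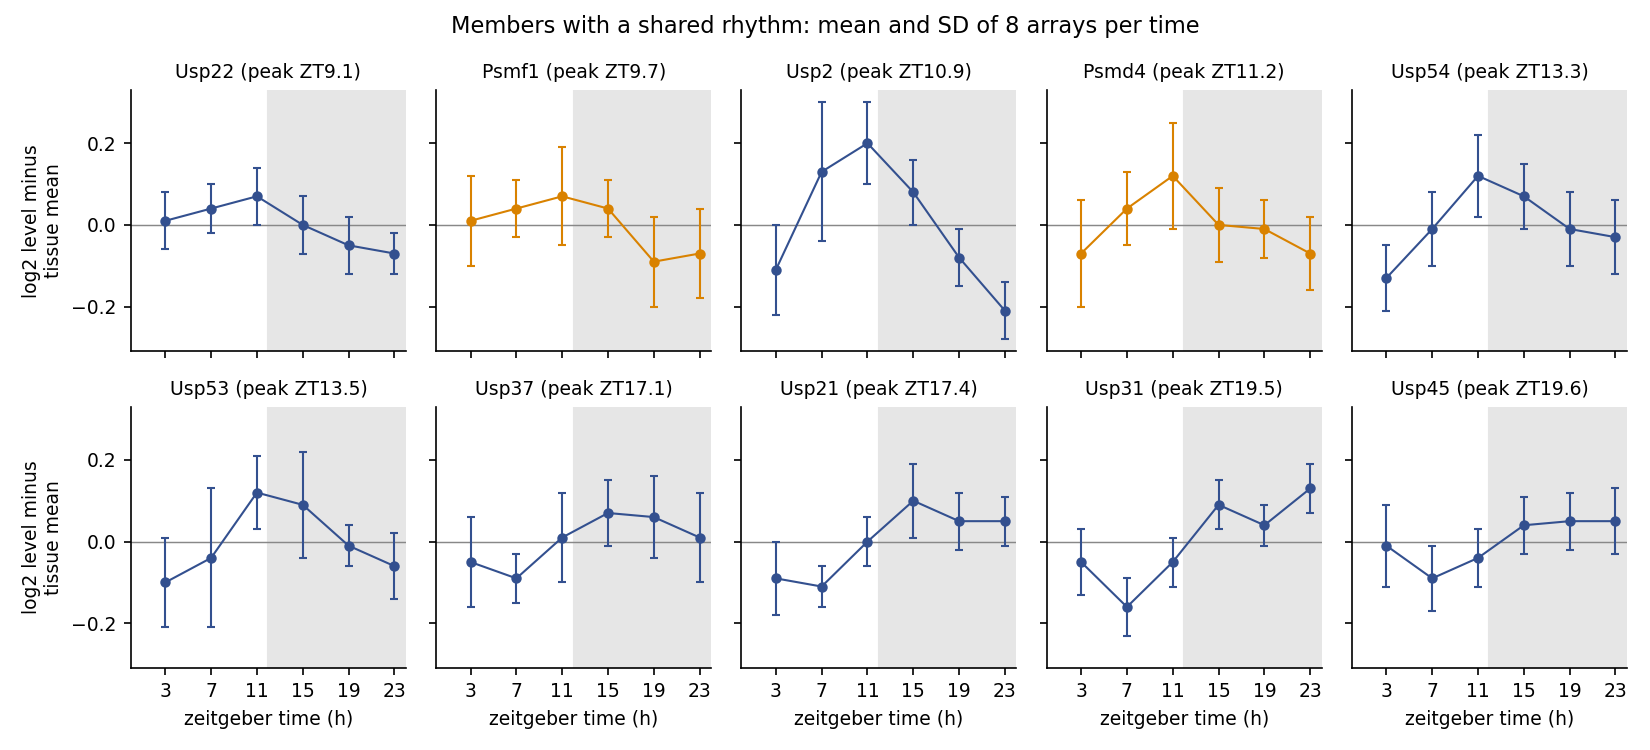
Mean and SD (n = 8 arrays, 2 in each of 4 tissues) of the log2 level minus the tissue mean (vertical axis) against zeitgeber time in h, for the 10 members with a shared rhythm in order of peak time. Psm genes are orange, Usp genes blue, and grey marks the dark. Usp2 covers the widest range, from 0.20 at ZT11 to -0.21 at ZT23, and Usp37, Usp21, Usp31 and Usp45 are low at ZT7.

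Both Psm genes with a shared rhythm peaked in the light. Psmd4, a ubiquitin receptor of the 19S cap, had a median of -0.02 at ZT3, 0.04 at ZT7, 0.16 at ZT11, -0.01 at ZT15, -0.03 at ZT19 and -0.10 at ZT23, with a range of -0.11 to 0.25 at ZT11. Its amplitude was 0.08 with a peak at ZT11.2 (limma, adjusted p = 0.0402), and the ranges of all 6 times overlapped. Psmf1, the proteasome inhibitor PI31, had medians of 0.03, 0.07, 0.10, 0.02, -0.10 and -0.04 in the same order of times. Its amplitude was 0.08 with a peak at ZT9.7 (adjusted p = 0.0418).

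Neither Psm call was stable. Psmd4 lost it in 16 and Psmf1 in 18 of 48 fits without 1 array, with highest adjusted p-values of 0.0844 and 0.0825. Both lost it without the filter on low levels (adjusted p = 0.0558 and 0.0579) and with the times as a factor (adjusted p = 0.128 and 0.202). Psmf1 overlaps the gene Tmem74b. The members next below the threshold were Usp33 (adjusted p = 0.0511) and Psma7 (adjusted p = 0.0621).

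By position in the proteasome, 1 of 11 tested 19S non-ATPase subunits and 1 of 5 activators and inhibitors passed. None of 5 alpha subunits, 7 beta subunits, 4 subunits specific to the immunoproteasome or thymoproteasome, 6 ATPases or 7 assembly chaperones passed by limma, beside 1, 0, 0, 2 and 1 at an unadjusted p under 0.05. Median amplitudes ran from 0.0232 for the assembly chaperones to 0.0455 for the immunoproteasome and thymoproteasome subunits. The fitted peak lay between ZT6 and ZT18 for 34 of 45 Psm genes (75.6%), 30 of 46 Usp genes (65.2%) and 52.3% of all genes. Most of these peaks belong to curves that did not pass the test.

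**Figure D3:**
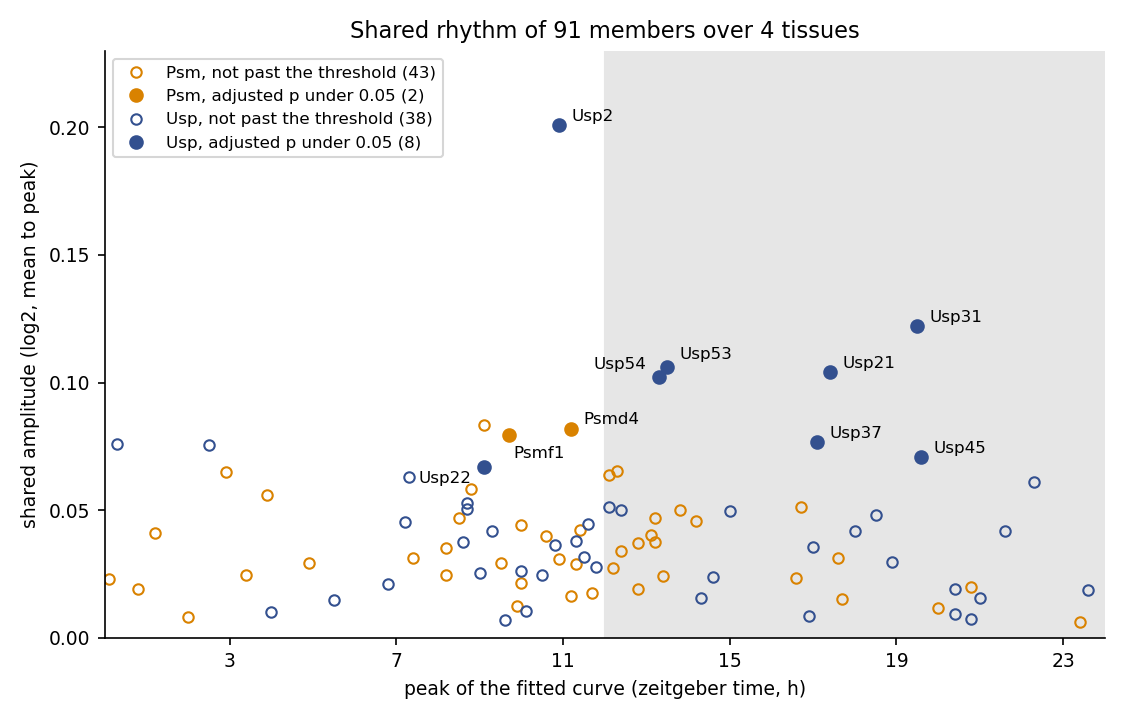
Shared amplitude (log2, mean to peak, vertical axis) against the peak of the fitted curve in h of zeitgeber time (horizontal axis) for the 45 Psm genes (orange) and 46 Usp genes (blue). Filled points passed the adjusted p threshold and grey marks the dark. Usp2 stands alone at 0.201, the other filled points lie between 0.067 and 0.122, and most open points lie below 0.06.

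Other genes of the pathway gave few calls. Of 9 tested genes for ubiquitin, its activating enzymes and shuttle proteins, 1 passed: Uba6, an activating enzyme for ubiquitin, with an amplitude of 0.14 ± 0.02 and a peak at ZT19.4 (limma, adjusted p = 5.24e-06). Of 7 other proteasome subunits and regulators, 1 passed: Nfe2l2, the stress-response transcription factor NRF2, with 0.13 ± 0.03 and a peak at ZT15.1 (adjusted p = 0.017). Of 12 other deubiquitinases and Usp cofactors, 1 passed: Otud4, with 0.06 ± 0.02 and a peak at ZT11.6 (adjusted p = 0.0364). Uba6 kept its call in all 48 fits without 1 array and in all 12 other settings. Nfe2l2 lost it in 5 of 12 settings, with the times as a factor and without each of the tissues in turn (adjusted p between 0.0532 and 0.0881), and Otud4 in 7 of 12 settings (adjusted p up to 0.176) and in 10 of 48 fits without 1 array. None of 7 ubiquitin ligases of clock proteins passed by limma, and 0 did at an unadjusted p under 0.05. Marker genes of other cells moved over the day too: 4 of 7 endothelial, 3 of 8 oligodendrocyte and 2 of 8 astrocyte genes had a shared rhythm, against 0 of 7 microglial and 0 of 6 choroid plexus genes, and their part in the members' rhythms was not tested. In bulk tissue, fewer cells of a type and less RNA per cell cannot be told apart.

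Likeness to Usp2 was measured as Pearson's r over the 48 arrays with each tissue centred on its mean, given as a description, since all genes share the same arrays. The 5 most similar of all genes were Ciart, a repressor in the clock (r = 0.786), Ubr3, a ubiquitin ligase (0.767), Mt2, a metallothionein (0.734), Dbp, a transcription factor driven by the clock (0.712), and Dgat2, an enzyme of triglyceride synthesis (0.703). Their peaks were at ZT11.0, ZT10.3, ZT10.1, ZT11.6 and ZT10.0. Ciart (amplitude 0.64) and Dbp (0.50) had larger amplitudes than Usp2, and Ubr3 (0.09), Mt2 (0.12) and Dgat2 (0.15) had smaller ones. Among the members, Usp22 (r = 0.637) and Psmd4 (0.581) were most like Usp2, and Usp33 (-0.465) and Usp31 (-0.387) least.

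A comparison of dark with light, which assumes no cosine shape, set the mean of ZT15, ZT19 and ZT23 against that of ZT3, ZT7 and ZT11. In this test 5 Usp genes and 1 Psm gene passed, beside 3.84% of all genes. Usp31 (0.17 ± 0.02 on the log2 scale, limma, adjusted p = 1.68e-05) and Usp21 (0.14 ± 0.02, adjusted p = 5.68e-04) were higher in the dark, and Usp2 was lower (-0.14 ± 0.03, adjusted p = 0.00115). Usp45 (0.09, adjusted p = 0.0261) and Usp22 (-0.08, adjusted p = 0.0347) also passed. They are outside the rule for named genes in this comparison and were added after their values were seen. Psma7, an alpha subunit, was lower in the dark (-0.11 ± 0.03, adjusted p = 0.040). It lost its call in 31 of 48 fits without 1 array (highest adjusted p = 0.0704). Psmf1 (-0.08, adjusted p = 0.149) and Psmc3, an ATPase (0.06, adjusted p = 0.23), had the next smallest p-values of the Psm genes and did not pass.

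Within single tissues dark and light differed for 1 member in PFC and 1 in STR. In PFC, where 0.377% of all genes passed, it was Usp2 (-0.25, limma, adjusted p = 0.0251), and in STR, where 0.348% passed, it was Usp31 (0.23, adjusted p = 0.0164), both named after their values were seen. No member passed by limma in SN/VTA, where 0.0521% of all genes did, or in HAB, where 0.122% did. These calls were lost in 8 of 48 fits without 1 array for PFC and changed in number in 6 of 48 for STR.

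The second question was how the level of each member differed between tissues. The mean of a tissue was compared with that of the other 3 together, and a member was called when the adjusted p was under 0.05 and the difference was at least 0.5 on the log2 scale. With 12 arrays per tissue many genes passed on p alone (73.5% of all genes in SN/VTA, 74.8% in PFC, 75.0% in STR and 67.4% in HAB), so the size limit decided most calls. Over the 4 tissues 16 of 45 Psm genes (35.6%) and 17 of 46 Usp genes (37.0%) were called at least once, beside 37.2% of all genes. The gap between the highest and the lowest tissue mean had a median of 0.51 for Psm genes, 0.57 for Usp genes and 0.52 for all genes. The 4 differences of a gene cancel out, so a low value in 1 tissue raises the differences of the others.

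PFC held the most calls: 7 Psm genes were higher and 7 lower there, and 9 Usp genes were higher and 2 lower, beside 23% of all genes called in either direction (9.95% higher, 13.0% lower). The lower ones were led by beta subunits of the 20S core. Psmb5, which carries the chymotrypsin-like active site, read 8.0 to 8.59 with a median of 8.38 in PFC, against 11.00 to 11.22 in SN/VTA (median 11.14), 10.60 to 10.97 in STR (median 10.82) and 10.65 to 10.94 in HAB (median 10.79). All 12 PFC arrays were below all 36 others. The difference was -2.53 ± 0.04 (limma, adjusted p = 1.30e-29), and the gap between the SN/VTA and PFC means was 6.77-fold, the widest of the 91 members.

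Psmb4, a structural beta subunit, read 7.75 to 8.21 with a median of 7.93 in PFC, against 9.24 to 9.61 on the other arrays. The 2 ranges did not overlap, and the difference was -1.47 ± 0.03 (limma, adjusted p = 2.76e-25). Psmb2, another structural beta subunit, read 8.27 to 8.74 (median 8.61) in PFC, against 9.13 to 9.91 on the others, again with no overlap (-1.02 ± 0.03, adjusted p = 1.07e-21). The other beta subunits did not pass in PFC and went both ways, with differences of -0.38 for Psmb3, 0.04 for Psmb1, 0.32 for Psmb7 and 0.33 for Psmb6. Among alpha subunits Psma6 was lower in PFC by test (-0.63) and Psma7 higher (0.80), while Psma1 (-0.21), Psma2 (0.23) and Psma3 (0.39) did not reach the size limit. The subunits of 1 core particle thus did not share a direction on these arrays.

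Outside the core, the lower Psm genes in PFC were Psme2, a subunit of the PA28 activator (-0.84), Psmd10, an assembly chaperone (-0.51), and Psmd8, a lid subunit of the 19S cap (-0.51). The higher ones were Psma7, Psmc2 and Psmc6, both ATPases (0.78 and 0.55), Psmd5, an assembly chaperone (0.68), Psme1, the partner of Psme2 in PA28 (0.65), and the lid subunits Psmd7 (0.53) and Psmd12 (0.52). Psma7 read 8.79 to 9.29 with a median of 8.92 in PFC, against 7.57 to 8.62 on the other arrays, with no overlap (0.80 ± 0.04, limma, adjusted p = 9.18e-19). For Psmc2 a second, dimmer row of the array gave a PFC difference of 0.13, and with the rows averaged its difference fell below the limit, at 0.46. Psme1 overlaps Emc9 and Psmd10 overlaps Atg4a.

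Of the 11 Usp genes called in PFC, 9 were higher there, and the other 35 of 46 were not called. Usp47, which stabilises the DNA repair polymerase beta, read 9.50 to 9.78 with a median of 9.64 in PFC, against 8.40 to 8.85 on the other arrays. The ranges did not overlap (0.99 ± 0.03, limma, adjusted p = 2.76e-24). Usp25 read 9.28 to 9.53 (median 9.36) in PFC, against 7.90 to 8.90 on the others (0.90 ± 0.04, adjusted p = 5.22e-18). Usp15, which acts on receptors and SMADs of TGF-beta signalling, read 9.55 to 9.73 (median 9.63), against 8.55 to 9.06 (0.76 ± 0.03, adjusted p = 3.82e-20). For all these genes each of the 12 PFC arrays was above the other 36.

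The other Usp genes higher in PFC were Usp32 (0.68), Usp46 (0.67), Usp34 (0.60), Usp37 (0.59), Usp1 (0.57) and Usp48 (0.53). Usp46 acts with the cofactor Wdr48 and has a second row on the array that gave a difference of 0.04. Lower in PFC were Usp30, which sits on the outer mitochondrial membrane (-0.84 ± 0.04, limma, adjusted p = 6.22e-17), and Usp50 (-0.62 ± 0.05, adjusted p = 6.79e-12). Usp30 read 7.52 to 8.10 in PFC, against 8.31 to 9.16 on the others, with no overlap. Usp50 fell short of the size limit when its 2 rows were averaged (-0.42). Oligodendrocyte markers were lower in PFC for 7 of 8 genes, with mean levels of 8.59 to 9.08 over its arrays, and astrocyte markers for 5 of 8. Their part in the members' differences was not tested.

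**Figure D4:**
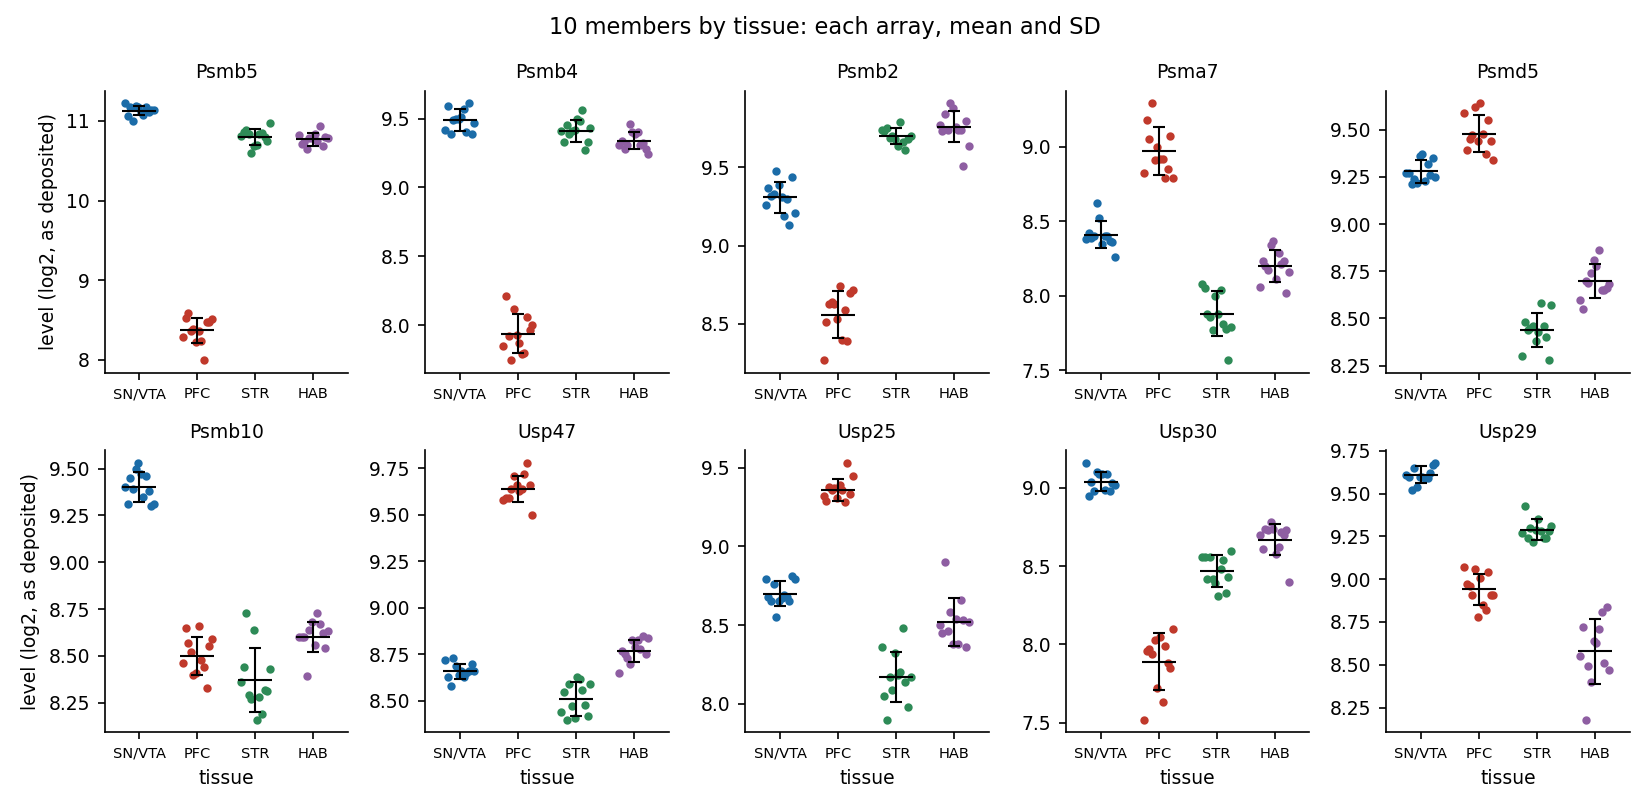
Level on each array (log2, vertical axis, a scale for each gene) in the 4 tissues for 10 members with large tissue differences. Black bars give the mean and SD of 12 arrays. Psmb5, Psmb4 and Psmb2 are lowest in PFC with no overlap, Usp47 and Usp25 highest there, and Psmb10 is highest in SN/VTA.

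In SN/VTA 6 Psm genes were higher and 0 lower, and 4 Usp genes were higher and 3 lower, beside 18.3% of all genes called (12.5% higher, 5.82% lower). Psmb5 was again among them, with all 12 arrays above all others (1.15 ± 0.04, limma, adjusted p = 2.46e-21). Psmb10, a catalytic beta subunit of the immunoproteasome, read 9.30 to 9.53 with a median of 9.39 in SN/VTA, against 8.16 to 8.73 on the other arrays. The ranges did not overlap (0.91 ± 0.04, adjusted p = 3.29e-19). The other immunoproteasome subunits did not pass in SN/VTA, with differences of 0.03 for Psmb8 and 0.06 for Psmb9, and 0 of 11 interferon-responsive genes passed there. Psmb8 and Psmb9 were dim on the arrays, with means of 5.83 and 5.35 against 8.72 for Psmb10, so a difference may not show. Psma1 (0.62 ± 0.04, adjusted p = 1.04e-14) had no overlap with the other tissues either, and Psmb4 (0.59), Psme2 (0.58) and Psmd10 (0.53) completed the list. For Psmb4 the SN/VTA mean was close to that of STR, with PFC lowest.

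Among the Usp genes, Usp54 (0.80 ± 0.03, limma, adjusted p = 5.56e-19), Usp30 (0.70 ± 0.04, adjusted p = 6.63e-15), Usp29 (0.67 ± 0.04, adjusted p = 1.14e-15) and Usp39, a splicing factor (0.52), were higher in SN/VTA, each with all 12 arrays above the other 36. Usp28 read 7.11 to 7.41 with a median of 7.32 in SN/VTA, against 7.78 to 8.33 elsewhere, with no overlap (-0.74 ± 0.04, adjusted p = 9.40e-18). Usp48 (-0.60 ± 0.03, adjusted p = 9.20e-18) and Usp2 (-0.51 ± 0.03, adjusted p = 1.42e-15) were lower too. For Usp2 9 of the 12 SN/VTA arrays were below all others, and the call was lost without 1 of the arrays (-0.498 at the least) and with each array centred on its median (-0.37), as was that of Usp48 with centring (-0.45). Oligodendrocyte markers were higher in SN/VTA for 7 of 8 genes, with mean levels of 10.35 to 10.59, and astrocyte markers for 6 of 8, and their part here was not tested.

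Usp2 averaged 8.74 ± 0.20 in SN/VTA, 9.28 ± 0.21 in PFC, 9.13 ± 0.19 in STR and 9.34 ± 0.10 in HAB (SD, n = 12). SN/VTA was the lowest, and the ranges of the other 3 tissues overlapped. The differences in PFC (0.21 ± 0.03, limma, adjusted p = 2.48e-07) and HAB (0.29 ± 0.03, adjusted p = 1.49e-09) were under the size limit, and that in STR (0.02 ± 0.03, adjusted p = 0.634) was under both limits.

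In STR 2 Psm genes were higher and 3 lower, and 1 Usp gene was higher and 5 lower, beside 13.7% of all genes called (4.93% higher, 8.81% lower). Psmb5 (0.71 ± 0.04, limma, adjusted p = 3.25e-16) and Psma6 (0.64 ± 0.03, adjusted p = 1.28e-18) were higher. For Psmb5 the STR mean was below that of SN/VTA and close to that of HAB, with PFC lowest. Psma6 read 9.86 to 10.11 in STR, against 8.85 to 9.72 elsewhere, with no overlap. Lower in STR were Psmd5 (-0.72 ± 0.03, adjusted p = 2.14e-18), Psma7 (-0.65 ± 0.04, adjusted p = 4.46e-16) and Psmc6 (-0.51 ± 0.03, adjusted p = 5.50e-14). Each of the 3 was among the genes higher in PFC. Among the Usp genes, Usp25 (-0.69 ± 0.04, adjusted p = 7.45e-15), Usp53 (-0.59 ± 0.03, adjusted p = 2.87e-15), Usp1 (-0.55 ± 0.04, adjusted p = 1.10e-12), Usp32 (-0.51) and Usp47 (-0.51) were lower, and Usp50 was higher (0.54 ± 0.05, adjusted p = 2.32e-10). Usp50 and Psmc6 were near the size limit and lost their calls without some arrays, at 0.49 and -0.48 at the least. Usp50 also lost it with centred arrays (0.44) and with its 2 rows averaged (0.37), and Psmc6 with quantile normalization (-0.43).

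HAB held the fewest calls: 2 Psm genes higher and 1 lower, and 0 Usp genes higher and 1 lower, beside 9.38% of all genes (5.53% higher, 3.85% lower). Psmb5 (0.67 ± 0.04, limma, adjusted p = 1.88e-15) and Psmb2 (0.56 ± 0.03, adjusted p = 7.83e-15) were higher. Their arrays lay within the range of the other tissues for Psmb5, and 4 of 12 were above it for Psmb2. Both genes were lowest in PFC, which raised their differences in HAB. The HAB mean of Psmb5 was below those of SN/VTA and STR, and that of Psmb2 was only slightly above that of STR. Psmd12, a lid subunit, was lower (-0.52 ± 0.03, adjusted p = 9.92e-16), and fell short of the size limit with quantile normalization (-0.49). Usp29, an imprinted gene, read 8.18 to 8.84 with a median of 8.59 in HAB, against 8.78 to 9.68 elsewhere, and 10 of 12 arrays were below all others (-0.70 ± 0.04, adjusted p = 1.11e-15). Choroid plexus genes were higher in HAB for 6 of 6 markers, with mean levels of 7.14 to 9.45 over its arrays, and their part here was not tested.

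**Figure D5:**
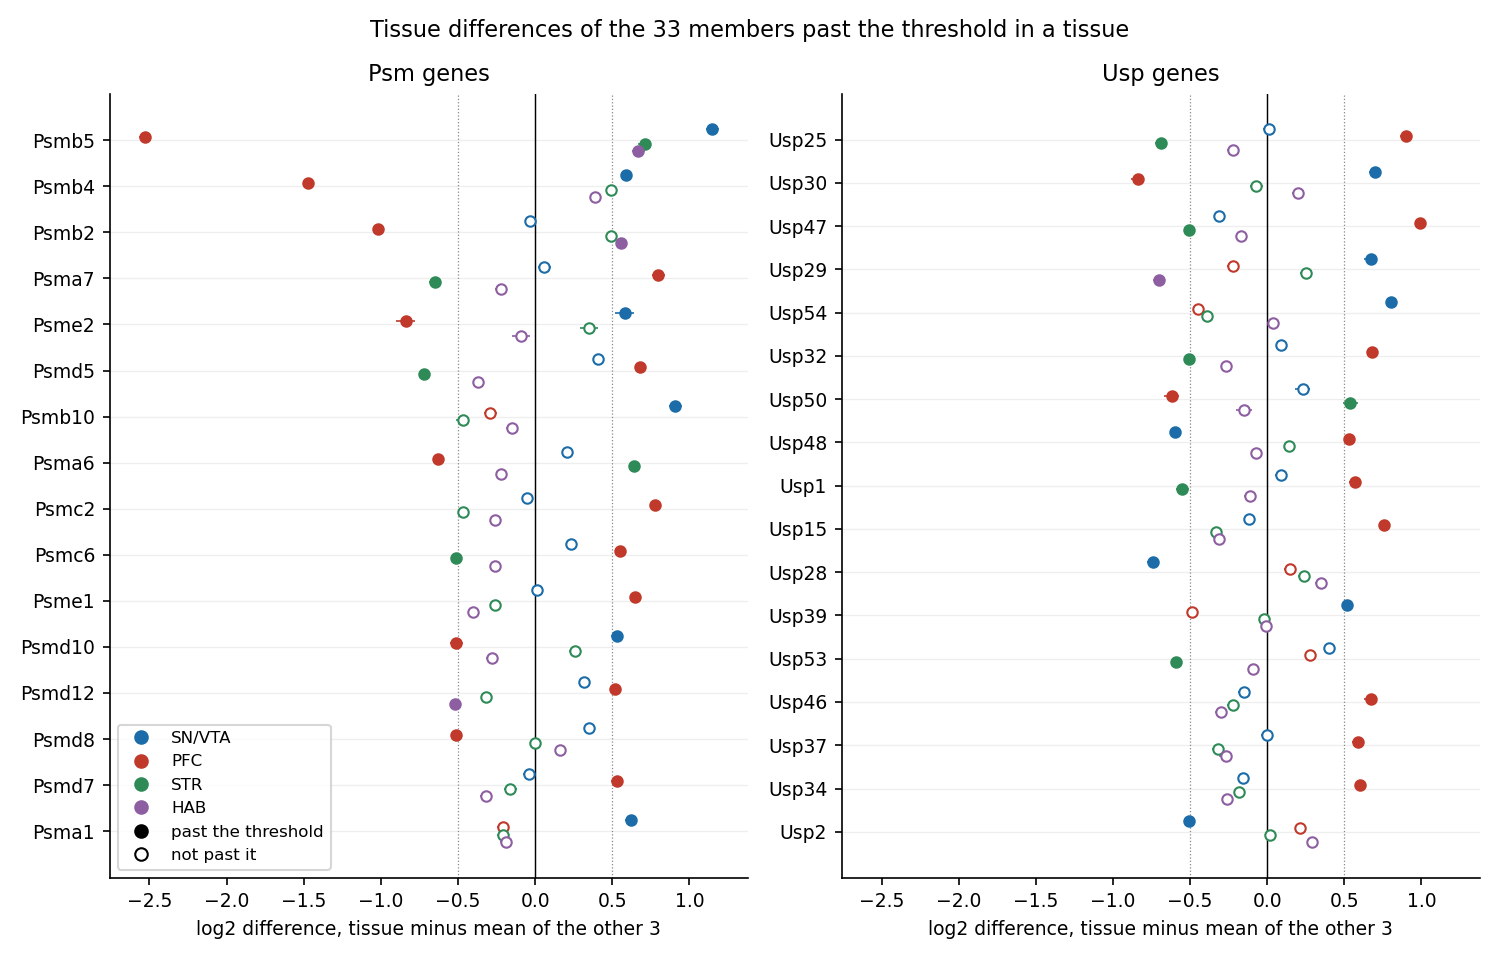
Log2 difference of each tissue against the mean of the other 3 (horizontal axis, with its standard error) for the 16 Psm and 17 Usp genes called in at least 1 tissue, ordered by the gap between their highest and lowest tissue. Filled points passed the threshold of adjusted p under 0.05 and 0.5 or more, and dotted lines mark that size. Psmb5 in PFC stands apart at -2.53, and 9 of the 17 Usp genes have a filled point above 0 in PFC.

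As families, the Psm genes had a median difference of 0.15 in SN/VTA, 0.06 in PFC, -0.05 in STR and -0.13 in HAB, and the Usp genes 0.09, 0.18, -0.18 and -0.07 in the same order. The medians of all genes were 0.05, -0.05, -0.02 and -0.02. In SN/VTA 38 of 45 Psm genes lay above 0 and in HAB 13 of 45 did, and of the Usp genes 31 of 46 lay above 0 in PFC and 11 of 46 in STR. Of the 17258 genes tested, 9783 lay above 0 in SN/VTA, 7625 in PFC, 8239 in STR and 7983 in HAB. These medians moved with the scaling. Centring each array on its median took the median of all genes to 0.2 in SN/VTA and -0.117 in STR. Relative to all genes, the family medians were 0.0986 (Psm) and 0.0391 (Usp) in SN/VTA, 0.111 and 0.225 in PFC, -0.0358 and -0.161 in STR, and -0.113 and -0.0514 in HAB, which centring cannot change. With quantile normalization they were 0.017 and -0.082 in SN/VTA, 0.105 and 0.201 in PFC, 0.0412 and -0.0924 in STR, and -0.103 and -0.0103 in HAB, so that the sign turned for Usp in SN/VTA and for Psm in STR. The Psm median in STR itself turned positive, to 0.00627.

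The split of calls moved with the scaling as well. Centring gave 8 Usp genes higher and 1 lower in SN/VTA, 2 Psm genes higher and 6 lower in STR, and 0 Usp genes higher and 8 lower in STR. Quantile normalization gave 4 Psm genes higher and 2 lower in STR, 2 Psm genes higher and 0 lower in HAB, and 1 Usp gene each way in HAB.

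Members of the proteasome varied together only weakly within tissues. With each tissue centred on its mean, the mean pairwise r over the 48 arrays was 0.074 among the 45 Psm genes, 0.0483 among the 46 Usp genes and 0.0427 between the families, beside 0.00607 among all genes. By position it was 0.221 among the 6 ATPases, 0.176 among the 11 non-ATPase subunits of the 19S cap, 0.157 among the 5 alpha subunits and 0.0673 among the 7 beta subunits. It was 0.0383 among the activators and the inhibitor, 0.0153 among the assembly chaperones and -0.094 among the 4 subunits of the immunoproteasome and thymoproteasome. These are descriptions over arrays that all genes share.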

How the data were processed

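Values were read from the authors' deposited table of 41345 probe sets on 48 Affymetrix Mouse Gene 2.0 ST arrays. The authors deposited them on the log2 scale, as judged from their range of 1.09 to 13.65 and array medians of 5.84 to 6.07. How they were background-corrected and normalized is not given in the sources used here. No detection calls were used. Precision is limited by the number of arrays. The platform annotation named 23521 rows with 1 symbol. Each of the 1082 genes measured by more than 1 row was represented by its brightest row. This gave 22180 genes, of which 17258 had a mean of 5.05 or more. All 94 matched members had a RefSeq entry with the same symbol, and promoter windows came from RefSeq (GRCm38.p6).

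Models were fitted over all genes tested with the limma package, version 3.58.1, in R 4.3.3, and adjusted by Benjamini-Hochberg. The shared rhythm was a joint F test of a 24-h cosine and sine, with tissue as a term, over 48 arrays. A rhythm in a tissue used its 12 arrays, and tissue and dark-light differences used 24 groups of tissue and time. The functions that fit rhythms, rhythm differences, tissue levels and dark against light were tested on simulated data. The other steps, such as the correlations and the motif search, were not. Tables and figures were made in Python 3.11.15 with pandas 2.3.3 and matplotlib 3.10.9.

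Named with values were Usp2; per family the 8 smallest p of the shared rhythm past the threshold; members past it in a tissue; the 3 highest and 3 lowest called differences per tissue and family; the 3 smallest p for dark against light; the 3 members on either side of the filter; the 5 genes most like Usp2; and pathway genes past the threshold. Other members named with a tissue difference complete a count or a complex and were added after their values were seen. The members and lists were chosen with earlier results of these data known.

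Replicate numbers 1 and 2 mark the first and second 24-h cycle, per the labels. Deviations from the group means were correlated between arrays of the first cycle only. With 2 arrays per group, those of the second cycle are the same with the sign turned. The mean correlation was 0.0357 (-0.16 to 0.41) over 60 pairs of one tissue, and 0.0357 (-0.121 to 0.251) over 36 pairs of one time. The pairs of one time are of different tissues collected at the same hour, which may share mice. Fits with the replicate number as a block, 2 other scalings, other filters, an intensity trend, the 6 times as a factor and fits without each array or tissue were the alternatives.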

Additional observations from a re-analysis of the deposited data

How the results depend on the processing

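Counts are of members past the threshold, and smaller changes of a count are not all listed. For the shared rhythm the 2 Psm calls became 1 with quantile normalization, 0 without the filter, 4 with an intensity trend, 0 with the 6 times as a factor, 0 without SN/VTA, 1 without PFC, 0 without STR and 0 without HAB, and ranged from 0 to 3 when 1 array was left out. The 8 Usp calls became 4 with the times as a factor, 4 without SN/VTA, 4 without PFC and 5 without HAB, and ranged from 7 to 9 without 1 array. Usp2, Usp31 and Usp21 kept their calls under all 12 of these settings and in all 48 fits without 1 array, with highest adjusted p-values of 0.000142, 0.0063 and 0.0444. The count was 0 for the difference of rhythms under every setting run.

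The 1 call in SN/VTA became 0 with centred arrays, without the filter, with the replicate block and with the times as a factor, 2 at a mean of 6 or more and 3 with the trend, and ranged from 0 to 1 without 1 array. The 1 call in PFC became 0 with the times as a factor and ranged from 0 to 1. The 0 calls in STR became 1 with the trend. Apart from smaller changes of a count, the replicate block changed no other call of a count or named gene. For dark against light, the 1 Psm call became 0 without the filter (0 to 1 without 1 array), the 5 Usp calls ranged from 4 to 6, the 1 call in PFC from 0 to 1, the 0 calls in HAB from 0 to 1, and the 1 call in STR became 2 with quantile normalization, at a mean of 6 or more and with the trend (0 to 2 without 1 array).

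Tissue counts depended mostly on the size limit. With none, Psm and Usp calls were 32 and 41 in SN/VTA, 37 and 44 in PFC, 35 and 38 in STR, and 38 and 34 in HAB. At a limit of 1 they were 1 and 0, 3 and 0, 0 and 0, and 0 and 0. Centring gave 10 Psm calls in SN/VTA and 8 in STR, and quantile normalization 2 Usp calls in HAB. Other counts fell less: quantile normalization gave 4 Psm genes higher and 0 lower in SN/VTA and 5 higher and 6 lower in PFC. It gave 1 Usp gene higher and 3 lower in STR. Without 1 array the Psm and Usp counts ranged from 6 to 6 and 6 to 8 in SN/VTA, 12 to 14 and 11 to 12 in PFC, 4 to 6 and 4 to 8 in STR, and 3 to 3 and 1 to 2 in HAB. The Psm median in STR turned to 0.00627 with quantile normalization. The difference of Usp2 in STR, 0.02 and not called, turned to -0.0834 with centred arrays and ranged from -0.00604 to 0.0382 without 1 array, with -0.00101 and -0.00604 without the second array of ZT3 or ZT7 there. Of the comparisons for single genes and family medians, 3774 counted as the same, 169 lost the call, 1 gained it, 12 moved and 4 reversed. For family medians and r with Usp2, the same meant a small shift. For the tests it meant an unchanged call, with no reversal where a direction or peak time was compared. Most comparisons were fits without 1 array, many for tissue differences with very small p-values, where a loss was unlikely. The cause of the changes was not tested.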

Other observations

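Psma4, an alpha subunit of the 20S core, was listed only in rows with several symbols. The brighter of its rows averaged 9.07 in PFC, against 8.26 in SN/VTA, 8.21 in STR and 8.28 in HAB, a PFC difference of 0.82 that may belong to another gene of the row. Psma5, below the filter, averaged 4.48 ± 0.32 in SN/VTA, 5.44 ± 0.36 in PFC, 5.10 ± 0.44 in STR and 4.85 ± 0.30 in HAB (SD, n = 12), with overlapping ranges in all tissues. Psma8 and Usp44 stayed between 4.69 and 4.97 and between 3.79 and 4.03 in the tissue means. For Usp12 the 2 rows of the array were about equally bright, with means of 7.24 for the row tested and 7.19 for the other. Their differences were -0.24 and -0.73 in SN/VTA, and -0.14 and 0.50 in STR, so its tissue result depends on the row.

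The members with the narrowest gap between tissues were Psmb9 at 0.11, Usp4 at 0.15, Psmd14, the deubiquitinase of the 19S cap, at 0.17, Psmd13 at 0.18, and Psmf1 and Psmd6 at 0.19. Psmb9, with a mean of 5.35, was the tested member nearest to the level limit, where a gap may not show. Usp14, a deubiquitinase that binds the proteasome, differed by at most 0.32 from the other tissues.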
